A study of Mus musculus with 12 samples.

Results

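The genes examined here write and erase DNA methylation. They were the 7 members Tet1, Tet2, Tet3, Dnmt1, Dnmt3a, Dnmt3b and Uhrf1, chosen by gene symbol from the 54227 symbols of the deposited table, and all 7 passed the filter that left 16128 genes for testing. The cells came from livers of C57Bl/6 mice that carry a Sox9EGFP transgene, in which green fluorescence follows the biliary gene Sox9. The mice were fasted for 16 h, the livers were dissociated, and 12000 cells per library were sorted by EGFP. The 4 sorted populations are named here, from dimmest to brightest, neg, sub, low and high. Every population, neg included, came from transgenic mice. The labels give no age or sex for the mice and no number of mice. Each population had 3 libraries of total RNA, numbered 1 to 3, and 8775387 to 15535588 reads per library were recovered from the deposited values. The deposited columns carry 1 of 3 suffixes, each shared by 1 library of every population and following the numbers 1 to 3; the labels do not say whether a suffix marks a mouse. Nor do they state that libraries of a population came from separate animals, so the p-values measure the spread between these libraries, which may in part be technical.

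DNA methyltransferases add a methyl group to cytosine, mostly where it precedes guanine. Dnmt3a and Dnmt3b set new marks, while Dnmt1 copies existing marks onto the new strand after replication and is brought to sites methylated on a single strand by Uhrf1. Tet1, Tet2 and Tet3 oxidise methylcytosine, the first step of its active removal, and Tet1 has been linked to the activation of biliary cells during liver repair. RNA levels are what was measured; no methylation was measured in these samples.

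The 3 Tet genes carry the results that follow, so the 250 bases before their RefSeq start sites are shown (GRCm38.p6, read 5′ to 3′ along the gene's strand). Every CG dinucleotide, the site at which these enzymes act, is in capitals.
Tet1, chr10:62887325-62887574, minus strand: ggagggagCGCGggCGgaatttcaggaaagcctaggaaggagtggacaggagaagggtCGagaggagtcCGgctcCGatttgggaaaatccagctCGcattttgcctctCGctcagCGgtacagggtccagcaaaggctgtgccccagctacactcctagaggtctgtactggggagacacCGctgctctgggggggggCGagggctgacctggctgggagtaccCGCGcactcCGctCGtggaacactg
Tet2, chr3:133544391-133544640, minus strand: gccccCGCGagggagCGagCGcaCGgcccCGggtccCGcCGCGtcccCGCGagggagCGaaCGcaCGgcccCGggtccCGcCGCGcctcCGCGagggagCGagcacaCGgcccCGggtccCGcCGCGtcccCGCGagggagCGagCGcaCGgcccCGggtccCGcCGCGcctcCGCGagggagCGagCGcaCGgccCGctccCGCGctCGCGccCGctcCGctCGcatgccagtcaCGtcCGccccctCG
Tet3, chr6:83441679-83441928, minus strand: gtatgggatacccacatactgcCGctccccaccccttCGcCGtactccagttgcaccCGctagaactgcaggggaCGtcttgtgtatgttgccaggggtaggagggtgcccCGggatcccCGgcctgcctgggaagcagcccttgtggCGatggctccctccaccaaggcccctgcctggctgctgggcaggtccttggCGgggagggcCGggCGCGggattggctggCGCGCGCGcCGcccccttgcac
The Tet1 stretch holds 15 CG dinucleotides, the Tet3 stretch 17 and the Tet2 stretch 51. The median over all 32851 RefSeq start sites was 6, and 99.9% of them held fewer than Tet2, against 72.7% for Tet1 and 76.5% for Tet3. In GENCODE M21 Tet1 spans 62804570 to 62908996 on chromosome 10, Tet2 133463679 to 133545139 on chromosome 3 and Tet3 83362373 to 83459084 on chromosome 6, all on the minus strand, so each start site shown lies inside the annotated gene. The deposited values are per gene and do not show which start site was used.

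Tet1, which oxidises methylcytosine, was listed at 0 in all 3 neg libraries and above 0 in all 9 EGFP-positive libraries. Its normalised counts were 30.2, 312.6 and 324.2 in sub 1, 2 and 3, which correspond to 41, 273 and 325 recovered reads. In low they were 49.7, 200.5 and 904.9 (67, 236 and 1101 reads), and in high 417.1, 39.4 and 610.1 (482, 39 and 747 reads). No EGFP-positive library overlapped neg, while within each EGFP-positive population the highest library exceeded the lowest by 10.7-fold in sub, 18.2-fold in low and 15.5-fold in high. A count of 0 allows up to 3 reads, or normalised counts of 2.07, 3.67 and 2.90 in neg 1, 2 and 3; this limit covers counting error only. Against that floor of 3 reads in each neg library, mean Tet1 was at least 77.2-fold higher in sub, at least 133.7-fold in low and at least 123.5-fold in high. The bound for low rested on low 3, without which it was 43.4-fold, and that for high was 79.3-fold without high 3. Comparing the lowest library of each population with the highest neg floor gave 8.24-fold for sub, 13.6-fold for low and 10.7-fold for high. Of the tested genes, 71, or 0.44%, were likewise at 0 in all neg libraries and above 0 in all 9 others. Complete separation with the higher values in the EGFP-positive population, without the demand for 0, was found for 4.69% of tested genes for sub, 8.38% for low and 10.2% for high against neg.

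In the limma fit Tet1 did not pass the threshold in a pairwise contrast. DESeq2, whose values are given with the counts of members, called it in all 3 contrasts against neg. The DESeq2 fit left out sub 3, the highest Tet1 library of sub, and high 2, the lowest of high. On the log2(normalised count + 1) scale, with limma, the difference was 7.20 ± 2.25 (SE) for sub against neg (adjusted p 0.188), 7.71 ± 2.25 for low against neg (adjusted p 0.056) and 7.77 ± 2.25 for high against neg (adjusted p 0.054). The fitted sizes depend on the pseudocount because neg is at 0. In limma with a pseudocount of 0.5, without a filter, with a minimum mean of 100, without the variance trend or without sub 1, low and high against neg passed (adjusted p 0.016 to 0.0479). These contrasts share the neg libraries and are not independent of each other. The mean of the 3 EGFP-positive populations against neg, a contrast added after the data were seen, gave 7.56 ± 1.84 with an adjusted p of 0.0202, higher in 9 of 9 libraries. This contrast called 4.58% of all tested genes, and 2.88% as higher, the direction of Tet1. That call was lost without neg 1 (adjusted p 0.0504), neg 2 (0.0522) or neg 3 (0.0513), with quantile normalisation (0.116) and in edgeR on 10 libraries (0.0866).

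Among the EGFP-positive populations no difference in Tet1 was detected. Its mean was 222.3 ± 166.5 (SD, n = 3) in sub, 385.0 ± 456.5 in low and 355.5 ± 290.3 in high. The libraries of all 3 overlapped, and the log2 differences were 0.51 ± 2.25 (SE) for low against sub, 0.57 ± 2.25 for high against sub and 0.05 ± 2.25 for high against low, each with an adjusted p of 1. An SE of this size leaves differences of several log2 units in either direction undetected. Against neg, a log2 difference of 7.77 with the same SE did not pass.

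**Figure D1:**
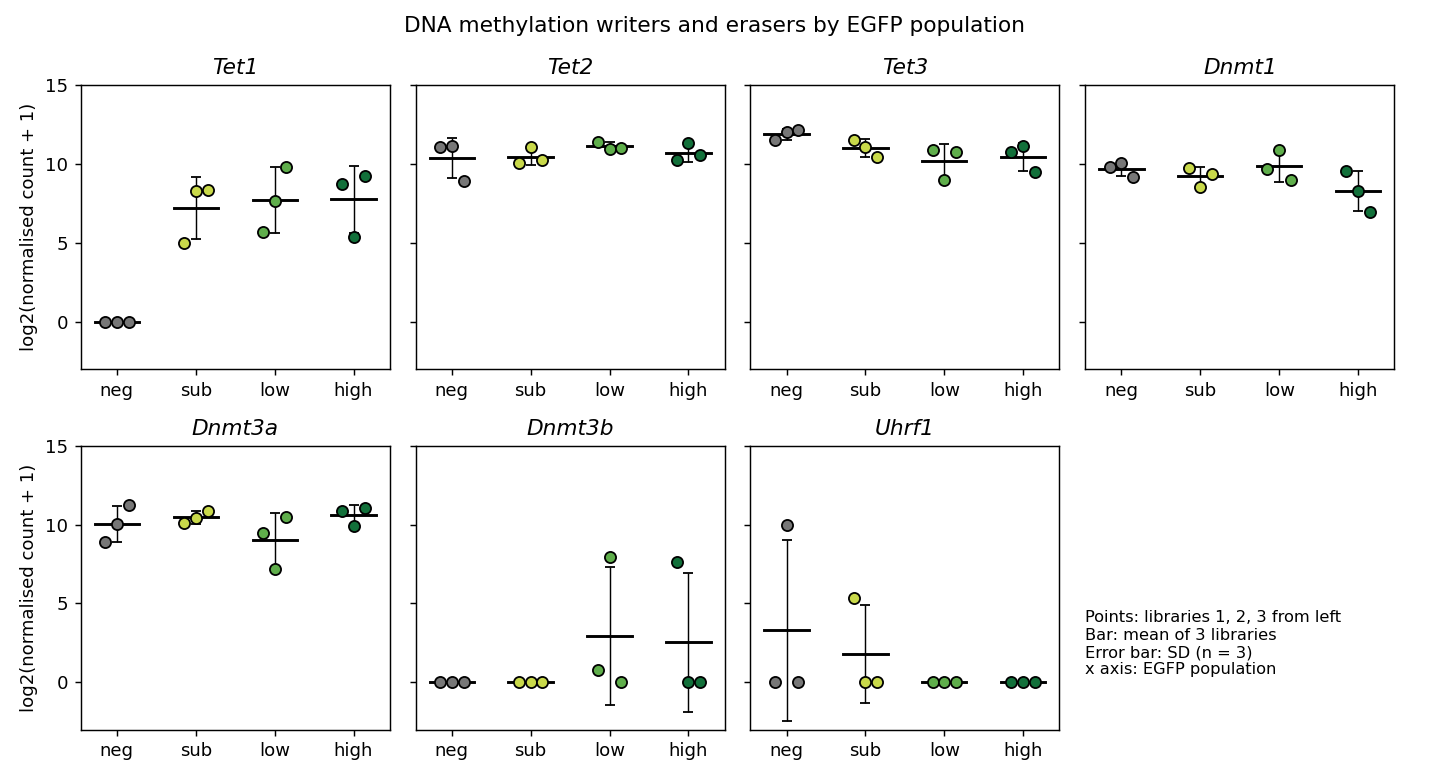
Normalised counts of the 7 members as log2(normalised count + 1), by EGFP population; points are libraries 1, 2 and 3 from left to right, bars are means and error bars SD (n = 3). Tet1 is at 0 in the 3 neg libraries and above 0 in the other 9, Tet2, Tet3, Dnmt1 and Dnmt3a are present throughout, and Dnmt3b and Uhrf1 are at 0 in most libraries.

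Tet3, another methylcytosine oxidase, had its highest mean in neg, without passing the test in any contrast. Its normalised counts were 2856, 4234 and 4467 in neg and 2909, 2162 and 1372 in sub. The low libraries held 1862, 497.9 and 1697, and the high libraries 1692, 2253 and 701.6. Every neg library lay above every low and every high library, while sub 1 exceeded neg 1. The neg mean of 3852 ± 870.5 (SD, n = 3) compared with 2147 ± 768.7 for sub, 1352 ± 744.6 for low and 1549 ± 785.4 for high, so low held 0.351 and high 0.402 of the neg level. In limma the log2 difference was -1.70 ± 0.64 (SE) for low against neg (unadjusted p 0.016, adjusted p 0.169) and -1.44 ± 0.64 for high against neg (unadjusted p 0.0366, adjusted p 0.262). For sub against neg it was -0.88 ± 0.64 (adjusted p 0.703). The limma difference was also below 0 for low against sub, at -0.82 ± 0.64 (adjusted p 0.703), and for high against sub, at -0.56 ± 0.64 (adjusted p 0.776). Without low 2 the difference of low against neg was -1.09, and without high 3 that of high against neg was -0.95. Its neighbours in the order of means, neg, sub, high and low, overlapped. Complete separation with the lower values in the EGFP-positive population was found for 8.52% of tested genes for low against neg and for 8.61% for high against neg.

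Tet2, the remaining oxidase, had the smallest residual SD of the 7. Neg libraries held 2153, 2275 and 486.8 normalised counts and sub libraries 1053, 2099 and 1224. Low libraries held 2684, 1930 and 2051, and high libraries 1192, 2609 and 1517. All populations overlapped, with means of 1638 ± 999.0 (SD, n = 3) for neg, 1459 ± 560.9 for sub, 2222 ± 405.1 for low and 1773 ± 741.8 for high. Its 6 pairwise log2 differences lay between -0.39 and 0.72 with an SE of 0.68. The largest, low against neg, had an adjusted p of 0.643 in limma, and it rested on neg 3: without that library the difference was -0.0094.

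To compare the paralogues with each other, normalised counts were divided by the length of the longest coding transcript in GENCODE M21, 14.369 kb for Tet1, 9.179 kb for Tet2 and 10.904 kb for Tet3. The length that the authors' quantification used is not known, so these levels are approximate. Per kb, Tet3 led in neg at 353.3 ± 79.8 (SD, n = 3) against 178.5 ± 108.8 for Tet2, and in low Tet2 led at 242.1 ± 44.1 against 124.0 ± 68.3 for Tet3. Tet1 had the lowest mean of the 3 in every population, at 15.5 ± 11.6 in sub, 26.8 ± 31.8 in low and 24.7 ± 20.2 in high. As a share of the summed Tet level per kb, Tet3 took 52.8% to 88.5% in the neg libraries and 44.2% to 69.5% in sub. It took 16.9% to 36.6% in low libraries and 23.6% to 49.4% in high ones. The Tet1 share reached at most 8.01% in sub, 14.2% in low and 15.6% in high. The sum itself averaged 531.8 ± 91.9 for neg, 371.3 ± 84.2 for sub, 392.9 ± 107.2 for low and 359.9 ± 117.6 for high. Every neg library lay above every sub library for this sum, while neg overlapped low and high; the sum was not tested. Over the 12 libraries Tet1 and Tet3 had a Pearson r of -0.731 and a Spearman rho of -0.810 on log2(normalised count + 1). Both are given as a description, since the values come from the same libraries. The population means of normalised counts ran in reversed orders for these genes.

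**Figure D2:**
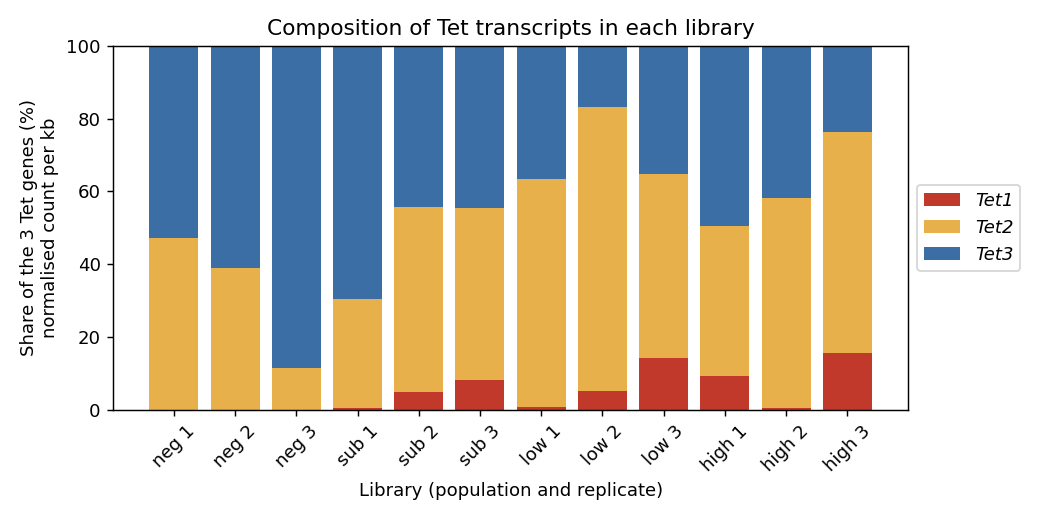
Share of each Tet gene, in percent, in the summed normalised count per kb of the 3 Tet genes, 1 bar per library. The Tet3 share is at or above 52.8% in the neg libraries and at or below 49.4% in every low and high library, and Tet1 is at 0 in neg.

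Dnmt1, the maintenance enzyme, was present in all 12 libraries. Its gene occupies bases 20907209 to 20959888 of chromosome 9 (minus strand). The neg libraries held 874.7, 1038 and 574.7 normalised counts and the sub libraries 832.8, 375.5 and 659.3. The low libraries held 820.1, 1885 and 494.0, and the high libraries 733.8, 312.3 and 124.1. Its mean was lowest in high, at 390.1 ± 312.2 (SD, n = 3), and highest in low, at 1066 ± 727.7, but the libraries of these populations overlapped. The low mean rested on low 2, without which it was 657.0 and the log2 difference of low against neg went from 0.18 to -0.34, and the high mean was 218.2 without high 1. The log2 difference of high against low was -1.58 ± 1.03 (SE) with an adjusted p of 1, and that of high against neg was -1.39 ± 1.03 (adjusted p 0.551). Without high 3 they were -0.93 and -0.75, without high 1 they were -2.21 and -2.03, and without low 2 high against low was -1.06.

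Uhrf1, the partner that recruits Dnmt1 and is best known from dividing cells, was found in 2 of the 12 libraries. Its gene occupies bases 56303321 to 56323486 of chromosome 17 (plus strand). It had a normalised count of 982.0 in neg 2, from 803 reads, and 40.5 in sub 1, from 55 reads. The other 10 libraries, among them all 6 of low and high, were at 0. No contrast passed, with log2 differences between -3.31 and 0 and an SE of 2.41. Its filter-passing mean of 85.2 thus came almost wholly from 1 library. Of the 12 proliferation genes in the list, 6 were above 0 in at most 2 libraries, 3 of them below the filter, and 6 were above 0 in at least 6; Mki67, the standard marker of cycling cells, was above 0 in 7 of 12 libraries and at 0 in all 3 of low.

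Dnmt3a, the first of the de novo enzymes, was present in all 12 libraries. Its gene occupies bases 3806007 to 3914443 of chromosome 12 (plus strand). Normalised counts were 481.6, 1046 and 2375 for the neg libraries and 1077, 1351 and 1875 for those of sub. They were 714.0, 141.9 and 1400 for low and 1862, 971.2 and 2164 for high. The mean was lowest in low, at 751.8 ± 629.7 (SD, n = 3), and highest in high, at 1666 ± 620.3, with overlapping libraries. The low mean was 427.9 without low 3 and 1057 without low 2. The log2 difference of high against low was 1.59 ± 0.90 (SE, adjusted p 1), and without low 2 it was 0.66. Dnmt1 and Dnmt3a thus had opposite orders of means in these 2 populations, neither past the threshold.

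Dnmt3b, the other de novo enzyme, was found in 3 libraries, all of them EGFP-positive. Its gene occupies bases 153649450 to 153687730 of chromosome 2 (plus strand). Its normalised count was 243.8 in low 2 (287 reads), 196.4 in high 1 (227 reads) and 0.742 in low 1, which is 1 read. It was at 0 in all neg and all sub libraries and in the remaining low and high libraries. No contrast passed, and the largest log2 difference was 2.91 ± 2.36 (SE) for low against neg and low against sub. Both rested on low 2, without which they were 0.40. Of all tested genes, 23.9% were above 0 in at most 3 libraries, so a pattern of this kind was common in these data.

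**Figure D3:**
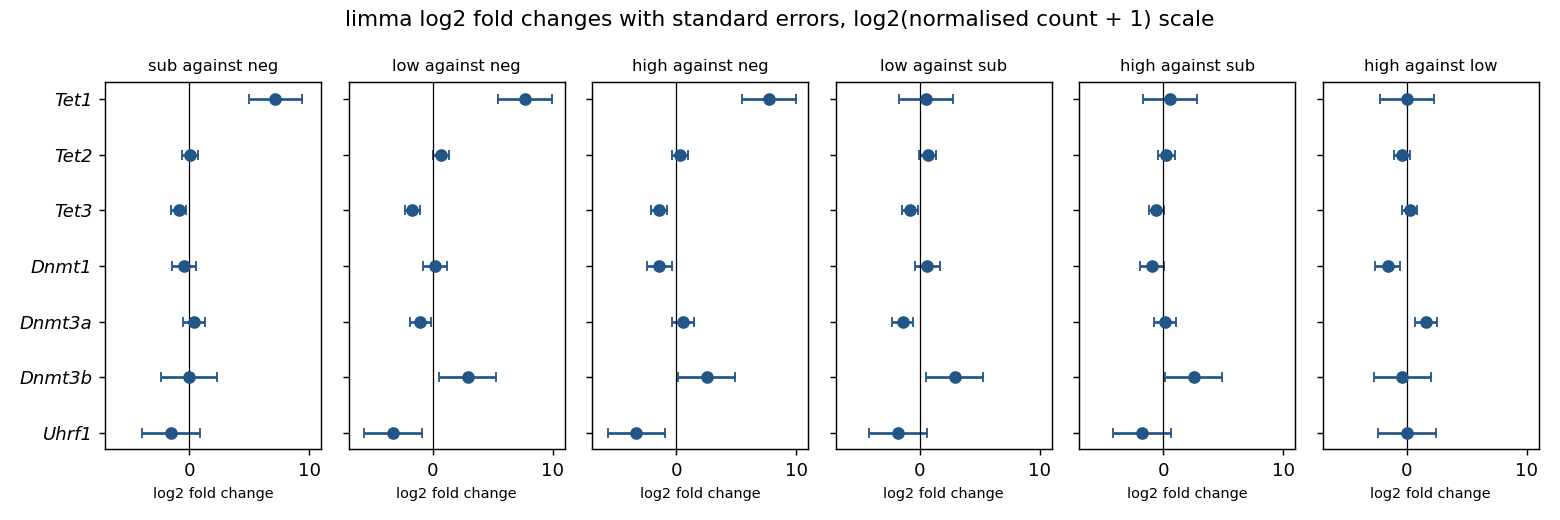
Log2 fold changes of the 7 members in the 6 pairwise contrasts from limma on the log2(normalised count + 1) scale; points are estimates and error bars standard errors from the fit of 12 libraries. Tet1 stands between 7.20 and 7.77 in the 3 contrasts against neg and near 0 in the others. Tet3 lies below 0 in the same 3 contrasts and also in low and high against sub.

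Counted together, 0 of the 7 members passed an adjusted p of 0.05 in limma in any of the 6 pairwise contrasts or in the F test over the 4 populations. At an unadjusted p under 0.05 the members were Tet1 for sub against neg, Tet1 and Tet3 for low against neg and for high against neg, and Tet1 in the F test; the other 3 contrasts had 0. In the added contrast they were Tet1 and Tet3. At that unadjusted threshold limma called 9.54% of all tested genes for sub against neg, 16.0% for low against neg, 16.4% for high against neg, 14.9% in the F test and 15.6% in the added contrast. It called 10.2% for low against sub, 4.24% for high against low and 10.2% for high against sub. The share of all tested genes that passed the adjusted threshold in limma was 1.19% for sub against neg, 0.744% for low against sub, 0.0% for high against low, 4.69% for low against neg, 4.69% for high against neg, 0.986% for high against sub and 4.23% in the F test. Read counts recovered for 10 libraries gave 0 of 7 in edgeR in all of these comparisons and in the added contrast. At an unadjusted p under 0.05 edgeR had 1 member for sub against neg, 2 for low against neg, 1 for high against neg, 2 for the added contrast and 1 in the F test, beside 7.55%, 11.9%, 10.5%, 19.0% and 10.7% of all genes in that order. It had 0 members for low against sub, high against low and high against sub, beside 7.12%, 3.12% and 6.26%. At the adjusted threshold edgeR called 1.58% of all genes for sub against neg, 1.68% for low against sub, 0.459% for high against low, 4.53% for low against neg, 3.96% for high against neg, 1.67% for high against sub, 5.26% for the added contrast and 4.46% in the F test. DESeq2 called Tet1 for sub against neg (adjusted p 5.03e-05), low against neg (6.55e-07) and high against neg (1.38e-06), in the added contrast and in the F test. Of the genes to which it gave an adjusted p, DESeq2 called 15.1%, 16.8%, 17.2%, 21.3% and 8.71% in these comparisons, in that order. It called 0 members for low against sub, high against low and high against sub, where 14.0%, 6.57% and 14.4% of genes were called. It gave no adjusted p for 2 members.

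Variation within populations differed between the members. Tet2, Tet3, Dnmt1 and Dnmt3a were above 0 in all 12 libraries, as were 19.8% of all tested genes. The residual SD within populations on the log2 scale was 0.75 for Tet2, 0.76 for Tet3, 0.88 for Dnmt1, 1.09 for Dnmt3a and 1.77 for Tet1, against a median of 2.84 over all tested genes. Dnmt3b at 3.10 and Uhrf1 at 3.26 were above that median. The antisense genes Gm42567 at Tet2 and Dnmt3aos at Dnmt3a, whose exons overlap theirs, were at 0 in all libraries.

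The populations differed in cell types as well as in EGFP. Sox9 itself was at 0.691, 0 and 0 in neg and between 3707 and 17140 in the EGFP-positive libraries. The summed level of 10 endothelial markers was 146907 to 208731 in neg libraries and 40638 to 52945 in sub, beside 1008 to 2699 in low and 631.3 to 1520 in high. For low against neg 10 of 10 of them passed as lower, beside 2.15% of all tested genes, and for high against neg 9 of 10, beside 2.25%. The 10 stellate and mesenchymal markers summed to 19938 to 32939 in neg libraries and 22455 to 34694 in sub, beside 118.4 to 1452 in low and 160.9 to 999.5 in high. Biliary markers summed to 22.2 to 412.5 in neg and 20453 to 95539 elsewhere, with Epcam, Spp1, Pkhd1, Cftr and Tspan8 at 0 in all neg libraries, and 7 of 10 passed as higher for sub against neg and 8 of 10 for each of low and high; of all tested genes 1.04%, 2.55% and 2.44% did. Hepatocyte markers summed to 628.6 to 1094 in neg libraries and 7062 to 7758 in sub, beside 13794 to 21672 in low and 17778 to 20989 in high, with 2, 3 and 4 of 10 passing as higher for sub, low and high against neg. The sums of the macrophage and lymphocyte markers did not exceed 1526 and 1108 in any library. Tet3 and the endothelial sum both had their highest mean in neg and the next in sub, while low and high were in opposite order, and Tet1, at 0 in neg, was found in the libraries in which the summed biliary and hepatocyte markers were high; the part of cell composition in either result was not tested. In sorted bulk samples, fewer cells of a type and less RNA per cell cannot be told apart.

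The surrounding pathway was examined through 5 lists of 59 genes, of which 50 were tested. A single gene passed in a single contrast: Mbd1, which encodes a protein that binds methylated CpG and acts as a repressor, was lower in high than in neg, at -2.29 ± 0.65 (SE) on the log2 scale with an adjusted p of 0.0472 in limma. This is 1 of 50 list genes for that contrast, in which 4.69% of all tested genes passed, 2.25% as lower; the count for the lists is not above that background. Its normalised counts were 5364, 2030 and 4287 in neg and 3302, 2411 and 1656 in sub. Low libraries held 765.2, 533.6 and 1096, and high libraries 519.2, 883.3 and 861.6. Every low and high library lay below every neg and sub library for this gene. The share of tested genes with this joint separation was not counted. Separation from sub alone, with lower values, was found for 5.99% of tested genes in low and 5.91% in high. Separation from neg alone was found for 8.52% and 8.61%. The adjusted p was 0.0537 for low against neg, and the call in high was lost in edgeR (0.200), with quantile normalisation (0.0767), with the replicate block (0.0639), without the variance trend (0.256), in a fit of only these 2 populations (0.0884) and without any of neg 1, neg 3, sub 1, sub 2, low 1, high 1, high 2 or high 3 (0.0503 to 0.155). Like Tet3, Mbd1 had its highest mean in neg, where the endothelial sum was highest. The stellate and mesenchymal sum was likewise lower in every low and high library than in every neg and sub library, and 6 of its 10 markers passed as lower for high against neg; the part of cell composition in this result was not tested.

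The direction of the list medians depended on the contrast. Over the 6 pairwise contrasts the median log2 difference of all tested genes lay between 0 and 0.20. For the 9 readers of methylated CpG, Mbd1 among them, the median ran from -0.61 for sub against neg to 0.41 for low against sub, and it was -0.46 for high against neg. For the 12 tested genes of base excision and demethylation it ran from -0.011 for sub against neg to 1.33 for high against neg. The 10 tested partners of the DNMT and TET enzymes ran from -1.04 for sub against neg to 0.996 for high against sub. The 10 tested genes of the methyl donor cycle ran from -0.26 and the 9 tested proliferation genes from -1.63, both for sub against neg, to 0.49 and 0.41 for low against sub. The genes with the smallest F-test p in the other 4 lists did not pass. In the first it was Gadd45g, a stress-induced gene tied to DNA demethylation, with means of 1579 in neg and 1494 in sub, beside 115.8 in low and 177.8 in high (adjusted p 0.171 in limma). Idh2, which makes the 2-oxoglutarate that TET enzymes consume, had means of 285.5 in neg and 730.2 in sub, beside 1176 in low and 1483 in high (adjusted p 0.353). In the methyl donor list it was Shmt2, a serine hydroxymethyltransferase that charges folate with carbon units. It was at 0 in every neg and sub library, had means of 53.2 in low and 93.1 in high, and was above 0 in 4 libraries (adjusted p 0.304). Mki67 had means of 370.9, 305.2, 0 and 62.4 in neg, sub, low and high (adjusted p 0.39). Dnmt3l, the catalytically inactive partner of the de novo enzymes, was at 0 in all 12 libraries.

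**Figure D4:**
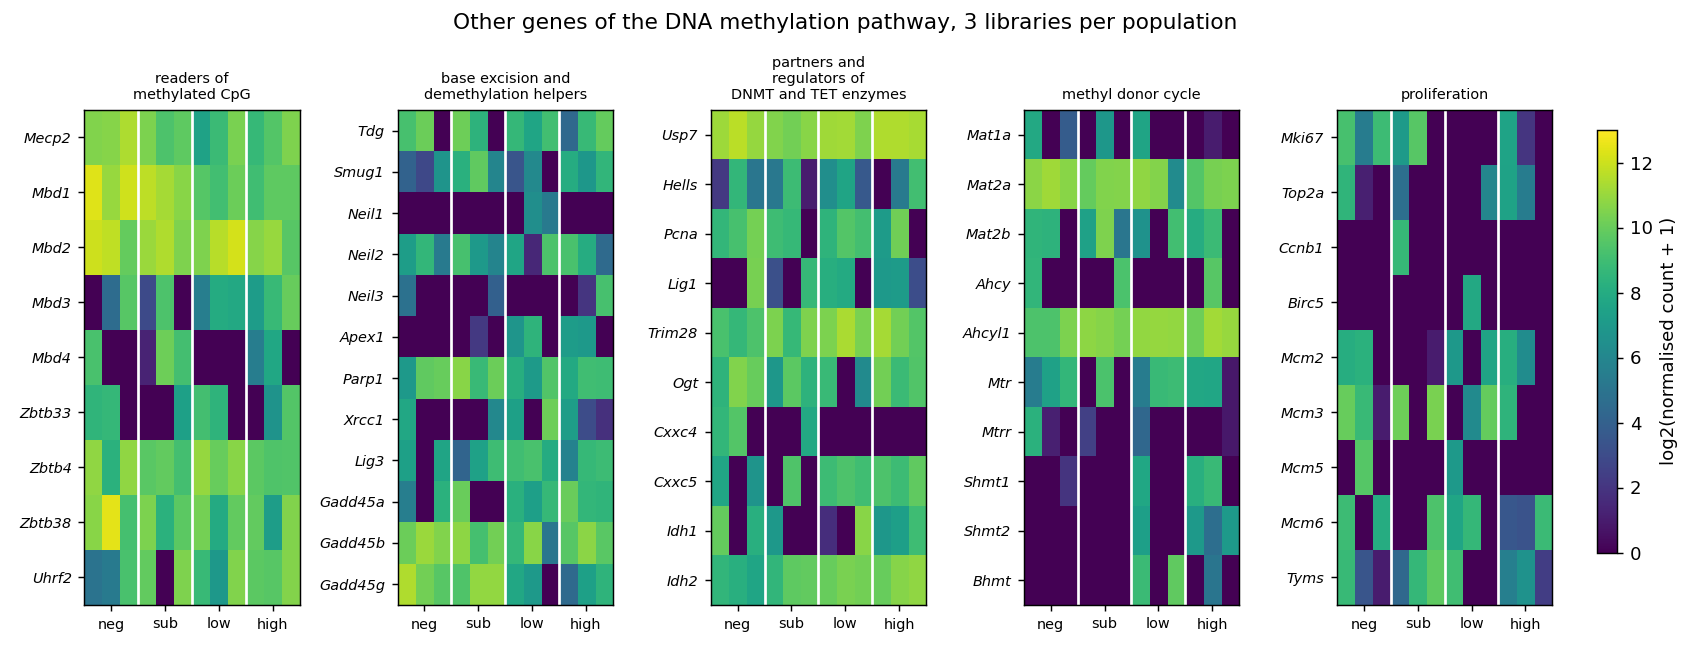
Log2(normalised count + 1) of the 50 tested genes of 5 pathway lists; columns are the 3 libraries of each population, separated by white lines, and colour gives the level. Mbd1 is brighter in neg and sub than in low and high, while 6 of 10 genes of the donor cycle list and 3 of 9 of the proliferation list are at 0 in more than 6 libraries.

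The genes whose profile over the 12 libraries was most like that of a member were taken from those with a mean of at least 100. For Tet1 they were Palmd (Pearson r 0.945, Spearman rho 0.762), with means of 0.230 in neg and 1029 in sub, beside 2609 in low and 1048 in high, and Stbd1 (0.940 and 0.794), at 0 in neg and at 518.6, 1113 and 536.8 in the others. For Tet3 they were Abca1 (0.917 and 0.783), a cholesterol exporter with means of 3650, 1281, 495.1 and 773.9 in neg, sub, low and high, and Dop1a (0.900 and 0.774). For Tet2 they were Cep57 (0.843 and 0.629) and Eif2s3x (0.840 and 0.462), for Dnmt1 Vmn1r26 (0.852 and 0.818) and Mttp (0.851 and 0.813), and for Dnmt3a Ankrd10 (0.932 and 0.797) and Sec61a1 (0.875 and 0.706). For Dnmt3b they were Gm4705 (0.849 and 0.907) and Camk2b (0.818 and 0.758), and for Uhrf1 Gm15753 (0.991 and 1.0) and Gm27149 (0.965 and 1.0), both of which were above 0 in 2 libraries only. These are the highest of 9613 correlations for each of the first 5 members and of 9614 for Dnmt3b and Uhrf1, over libraries that share their populations and their depth, and they describe these 12 libraries only.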

How the data were processed

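Total RNA of sorted cells was treated with DNase for 30 min, and libraries were made with the Pico v2 chemistry of the SMARTer Stranded kit, per the labels' protocols. The authors deposited a signal per gene and library: counts divided by 1 factor per library. Salmon, DESeq2 1.26.0 and mm10 are named in the submitters' processing notes without roles; annotation and strand setting are not given in the sources used here. In every library 100% of the values above 0 were whole multiples (tolerance 0.01) of the smallest, the value of 1 read. Sub 3 and high 2, where it lay within 0.02 of 1, were left out of the count tests.

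Genes with a mean of at least 10 were tested as log2(normalised count + 1) with limma 3.58.1 (R 4.3.3; variance trend, population as the only term, 12 libraries), two-sided, Benjamini-Hochberg over 16128 genes at 0.05. edgeR 4.0.16 and DESeq2 1.42.0 were alternatives on 10 libraries; the tests were tested on simulated data. Named genes were the members, the 2 most correlated genes for each, and from each list the genes that passed or, failing that, the one with the smallest F-test p; Dnmt3l and Sox9 were named besides. 1 gene of the methyl donor list is not reported here and was left out of its counts. Members and lists were chosen with earlier results of these data known. PCR copies are not independent molecules, so limits cover counting error only. Gene positions are from GENCODE M21 (GRCm38) and start-site sequences from RefSeq (GRCm38.p6), in which all 7 members were matched.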

Additional observations from a re-analysis of the deposited data

How the results depend on the processing

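The 7 members gave 49 member-by-contrast differences, the added contrast included, and 45 of them were never called under any alternative; the other 4 are Tet1 against neg. The number of members called was 0 for sub, low and high against neg and became 1, Tet1, with DESeq2 in all 3, and for low and high also with a pseudocount of 0.5, without a filter, with a minimum mean of 100 and without the variance trend; when libraries were left out it ranged from 0 to 1 for low and high, being 1 without sub 1. In the F test it went from 0 to 1 without the variance trend and with DESeq2. For all EGFP-positive populations against neg it went from 1 to 0 with quantile normalisation and edgeR and ranged from 0 to 1 when libraries were left out. Over the alternatives the adjusted p of Tet1 was 5.03e-05 to 0.652 for sub, 6.55e-07 to 0.243 for low and 1.38e-06 to 0.213 for high against neg.

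Directions changed only among differences that did not pass. With edgeR and DESeq2 the log2 differences were -0.018 and -0.049 for Tet2 and -0.053 and -0.092 for Dnmt3a (sub against neg), -0.18 and -0.18 for Tet3 and 0.37 and 0.27 for Dnmt3b (high against low), -0.17 and -0.27 for Tet2 (high against neg) and -0.16 and -0.22 for Tet2 (high against sub). Equal totals gave -0.0082 for Tet2 (sub against neg), and quantile normalisation -0.18 for Tet1 (low against sub) and 0.14 for Dnmt3a (EGFP-positive against neg). Leaving out a library gave ranges across 0 for sub against neg (Tet2 -0.67 to 0.44, Dnmt3a -0.17 to 0.98), low against sub (Tet1 -0.60 to 1.54), high against low (Tet1 -0.97 to 1.27, Tet3 -0.36 to 0.75, Dnmt3b -2.91 to 2.14), low against neg (Tet2 -0.0094 to 1.10, Dnmt1 -0.34 to 0.63), high against neg (Tet2 -0.40 to 0.71), high against sub (Tet1 -0.55 to 1.78, Tet2 -0.051 to 0.56, Dnmt3a -0.055 to 0.52) and EGFP-positive against neg (Tet2 -0.36 to 0.75, Dnmt3a -0.59 to 0.56). The cause was not tested.

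Counts over all genes moved more. The 192 genes of sub against neg became 0 in a fit of these 2 populations and 1659 in DESeq2. For low against sub 120 became 0 and 1554, for high against sub 159 became 8 and 1574, for low against neg 757 became 203 and 1871, for high against neg 757 became 341 and 1863, for high against low 0 became 751 in DESeq2 and 74 in edgeR, and for EGFP-positive against neg 739 became 2439 in DESeq2. Leaving out a library took low against sub to between 10 (without sub 2) and 126 genes, with 40 to 73 without any of neg 1, neg 2, neg 3, sub 1, sub 3, low 2 or low 3. It took high against sub to between 46 (without sub 2) and 176, with 62 to 99 without any of neg 1, sub 1, sub 3 or the 3 high libraries. Low against neg went to between 445 (without low 3; 474 without low 2) and 763, and high against neg to between 424 (without high 3; 433 without high 1, 429 without high 2) and 773. High against low went from 0 to 4 without high 1 and to 1 without high 2. With the replicate block, Tet1 had an adjusted p of 0.225, 0.0715 and 0.0693 for sub, low and high against neg and 0.0272 for the added contrast, and the block changed no call of a member. Deviations of same-numbered libraries correlated at -0.016 to 0.027 (18 pairs, median 0.011, 0 over 0.1). For the 36 differently numbered pairs the range was -0.045 to 0.023 (median -0.0036). The residual SD had a median of 2.84 over all tested genes. Correlations this small therefore cannot decide whether the numbers, and the column suffixes that follow them, mark shared animals. A shared source animal is not stated in the labels, so the main fit has no such term and the replicate block is an alternative.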

Other observations

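Among the 21 pairs of members, Dnmt1 and Dnmt3a had the second most negative Pearson correlation over the 12 libraries, after Tet1 and Tet3, with r at -0.647 on log2(normalised count + 1). By Spearman rho, at -0.608, they came after Tet2 and Dnmt3a as well (-0.664). Their mean per-kb levels were close in neg, at 141.3 ± 40.1 for Dnmt1 and 134.3 ± 100.4 for Dnmt3a (SD, n = 3). This closeness rested on neg 3, with 97.9 for Dnmt1 and 245.2 for Dnmt3a. Dnmt1 was the higher in neg 1 (149.0 and 49.7) and in neg 2 (176.9 and 108.0). In low the means were 181.7 ± 124.0 and 77.6 ± 65.02, and in high the order was the other way round, at 66.5 ± 53.2 and 172.0 ± 64.0. The gap in low was widest in low 2, at 321.2 for Dnmt1 and 14.7 for Dnmt3a. Low 1 had the same order (139.7 and 73.7), and low 3 the opposite (84.1 and 144.5). The Dnmt1 share of the summed DNMT level per kb ran from 28.5% to 75.0% in the neg libraries and from 31.4% to 56.0% in sub. Low libraries had 36.8% to 81.9%, and high libraries 8.65% to 34.7%. The high libraries lay below every low library for this share and overlapped those of neg and sub. The summed DNMT level per kb averaged 275.6 ± 72.6 for neg, 254.2 ± 51.2 for sub, 278.2 ± 99.1 for low and 253.6 ± 104.9 for high. These values describe 12 libraries, were picked after they were seen and carry no test.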
